A study of Mus musculus with 9 samples.

Results

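Interferon response genes are described here across 9 mouse oral tumors of 3 p53 genotypes. The set is a list of 34 genes known to be induced by interferons, matched by gene symbol to the probe sets of an Affymetrix expression array. Of the 34 genes, 32 had a probe set that carries their symbol alone, out of 18193 genes with such a probe set on the array. Where a gene had several such probe sets, the brightest by mean log2 signal stood for it. Isg15 was found only on a probe set shared with another gene, and no probe set carried the symbol Ifi44, so these 2 genes have no value here.

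The groups are 3 tumors labelled p53R172H/-, with the missense allele p53R172H over a null allele, 3 tumors labelled p53R172H/+, in which the other allele is wild type, and 3 tumors labelled p53-/-, without p53. The mice are named K-p53R172H/-, K-p53R172H/+ and K-p53-/- in the labels, all were 1 year old, and by the series' title activated Ras took part in inducing the tumors. The labels used here name neither what drives the p53 and Ras alleles nor the animal behind each tumor, so p-values cover only the spread between these samples, which may be technical. All 11 squamous epithelium markers measured, keratin and desmosome genes among them, were strongly detected, with a mean log2 signal of 13.04 to 13.10 in p53R172H/-, 13.02 to 13.15 in p53R172H/+ and 13.00 to 13.09 in p53-/- tumors. Each array gives 1 signal intensity per probe set, with array medians of 109 to 123 signal units, and the number of arrays limits the precision.

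Interferons are secreted proteins that warn cells of viruses, foreign or misplaced nucleic acids and some tumors. Type I interferons act through the kinases JAK1 and TYK2 to assemble a complex with STAT2 and IRF9 that binds the interferon-stimulated response element (ISRE), whereas interferon gamma acts mainly at the gamma-activated site (GAS). The induced genes encode RNA sensors, enzymes that block viral replication, transcription factors that amplify the response, the ubiquitin-like ISG15 system, chemokines that attract T cells and the machinery that presents peptides on MHC class I.

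The promoters of these genes show what the list shares at the sequence level. RefSeq promoter windows (assembly GRCm38.p6), from 250 bases before to 50 after the start of transcription, were found for 27 of the 34 genes and not for Mx1, Mx2, Dhx58, Ifi204, Oas2, Rtp4 and Usp18. The letters GAAA, any 2 bases and GAAA again, the core of the ISRE, stood on either strand in the windows of 15 of the 27 genes (55.6%), against 1079 of 27025 genes with a window in the same table (3.99%). The GAS letters TTCNNNGAA stood in the windows of 5 of the 27 genes (18.5%), against 2582 of 27025 (9.55%). A match is a description of the letters and no evidence that a factor binds.

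The stretches below show the matched letters in capitals, 5′ to 3′ on the strand of the gene, for members of different roles. The first 8 carry the ISRE letters and the last, of Irf1, carries the GAS letters.
Ifit1, chr19:34640780-34640819, plus strand: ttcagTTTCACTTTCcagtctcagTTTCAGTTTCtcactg
Ifit3, chr19:34583373-34583416, plus strand: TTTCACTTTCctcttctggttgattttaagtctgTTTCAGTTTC
Oas1a, chr5:120907518-120907557, minus strand: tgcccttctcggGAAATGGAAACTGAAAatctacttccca
Rsad2, chr12:26456548-26456587, minus strand: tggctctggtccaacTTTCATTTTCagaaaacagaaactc
Ddx58, chr4:40239799-40239838, minus strand: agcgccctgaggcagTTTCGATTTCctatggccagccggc
Isg15, chr4:156200866-156200905, minus strand: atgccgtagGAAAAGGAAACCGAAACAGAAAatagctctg
Gbp2, chr3:142620589-142620628, plus strand: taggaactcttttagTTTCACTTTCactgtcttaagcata
Cxcl10, chr5:92349078-92349117, minus strand: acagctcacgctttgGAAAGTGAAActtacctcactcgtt
Irf1, chr11:53769909-53769948, plus strand: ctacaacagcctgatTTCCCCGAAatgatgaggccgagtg

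In Ifit1 and Ifit3 there were 2 separate ISRE matches, and in Oas1a 2 and in Isg15 3 matches that overlap one another, so that their letters form 1 longer run of capitals. The match of Irf1 began 90 bases before the start of transcription, and its distance is given as -90. Those of Ifit1 began at -104 and -85, and that of Ddx58 at 3, just inside the transcript. The windows of Tap1, Trim25, Irf1, Irf7, Irf9, Ifit2, Oasl1, Oasl2, Cxcl9, Xaf1, Ifi35 and Ifi44 held no exact ISRE match, which says only that these letters are not in these windows. The GAS match of Bst2, at -136, overlapped the first of its ISRE matches, at -130, and not the one at -124.

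**Figure D1:**
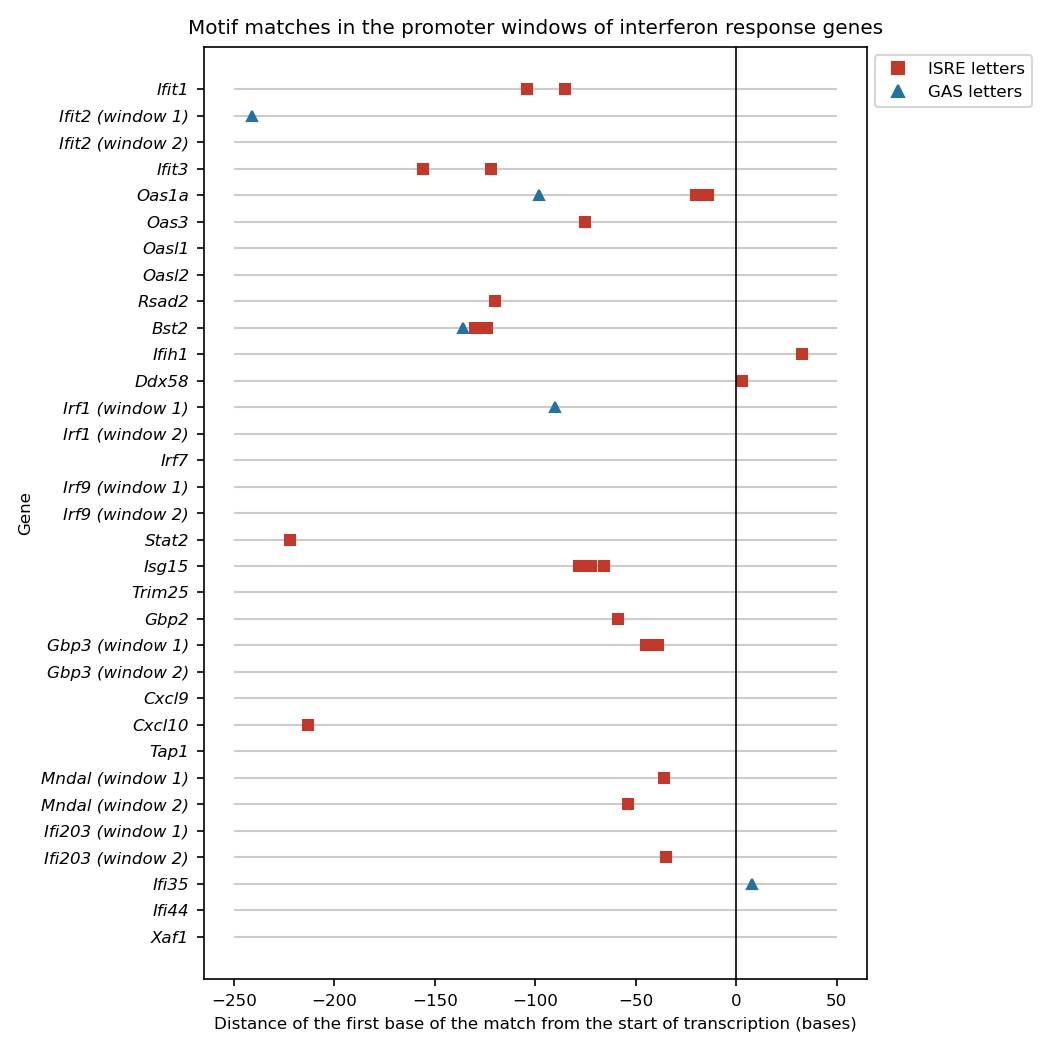
Positions of the ISRE letters (squares) and GAS letters (triangles) in the promoter windows of 27 genes. The horizontal axis is the distance in bases from the start of transcription to the first base of a match, each line is 1 window, and most ISRE matches lie within 160 bases before the start.

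Many of the genes were dim on these arrays. A gene was tested when its mean log2 signal reached that of 114 signal units, the median of all values on the arrays without control probe sets, and 16 of the 32 measured members did so, against 12115 of 18193 genes overall. The antiviral effectors Ifit1, Ifit2, Mx2, Oas3, Oasl2 and Bst2, the RNA sensors Ifih1 and Dhx58, the signal transducer Stat2, the ISG15 protease Usp18, the chemokines Cxcl9 and Cxcl10, the GTPases Gbp2 and Gbp3, Rtp4 and Ifi204 stayed under it. Their highest signal in any tumor was 62.3 for Usp18, 73.5 for Ifit1, 84.5 for Oas3, 112 each for Cxcl9, Cxcl10 and Gbp2, and 206 for Ifi204. The deposited table has no detection calls, so for these genes it is not known how much of the signal is background.

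No member passed an adjusted p of 0.05 in any comparison. The test was limma's moderated test on all 9 arrays, with Benjamini-Hochberg adjustment over the 12115 genes, of which 0% passed in each comparison. "Higher" and "lower" below therefore describe averages of these tumors. In bulk tumor RNA, fewer cells of a type and less RNA per cell cannot be told apart.

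At an unadjusted p under 0.05, the comparison of p53R172H/- with p53-/- tumors held 2 of 16 members, Mndal (higher) and Tap1 (lower), against 15.6% of all genes. Between p53R172H/+ and p53-/- tumors it was 3 of 16, Tap1, Trim25 and Ifi35, all lower, against 10.4% of all genes. Between p53R172H/- and p53R172H/+ tumors it was Mndal alone, against 4.97%. For both mutant groups together against p53-/- it was 4 of 16, Mndal (higher) and Tap1, Trim25 and Ifi35 (lower), against 15.9%.

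Groups that did not overlap in any tumor were as rare among the members as among all genes, or differed from them by 1 or 2 genes. This held for 3 of 16 members between p53R172H/- and p53-/- tumors (Mndal, Mx1 and Tap1), where 22.9% of all genes did not overlap. It held for 4 of 16 between p53R172H/+ and p53-/- tumors (Tap1, Trim25, Ifi35 and Oasl1), against 16% of all genes, and for 1 of 16 between the mutant groups (Mndal), against 11.9%. With both mutant groups set against p53-/-, only Tap1 of the 16 did not overlap, against 7.29% of all genes.

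The members had no common shift. Their median log2 fold change was -0.06 in p53R172H/- against p53-/- tumors, beside a median of -0.03 over all genes tested. It was 0.00 in p53R172H/+ against p53-/- tumors (all genes -0.03), 0.02 between p53R172H/- and p53R172H/+ tumors (all genes -0.01) and -0.06 for both mutant groups against p53-/- (all genes -0.03). The mean log2 signal of the 16 members was 7.76 to 7.89 in p53R172H/-, 7.63 to 7.75 in p53R172H/+ and 7.65 to 7.80 in p53-/- tumors, where the mutant groups narrowly missed each other and both overlapped the p53-/- tumors.

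No 1 tumor was the highest for more than 6 of the 16 members, and the share of all genes that each tumor led was not computed. The tumor with the highest signal was p53R172H/+ tumor 3 for 6 of the 16 members and p53-/- tumor 1 for 4, and p53R172H/- tumor 3 and p53R172H/+ tumors 1 and 2 led none. The distance between the lowest and the highest tumor had a median of 0.62 on the log2 scale over the 16 members (1.54-fold) and of 0.55 over all genes tested (1.46-fold). It exceeded 1 on that scale for 2 of 16 members (12.5%), Rsad2 and Mndal, and for 13.6% of all genes tested. With each array left out in turn, no member passed the adjusted threshold in any of the 4 comparisons.

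**Figure D2:**
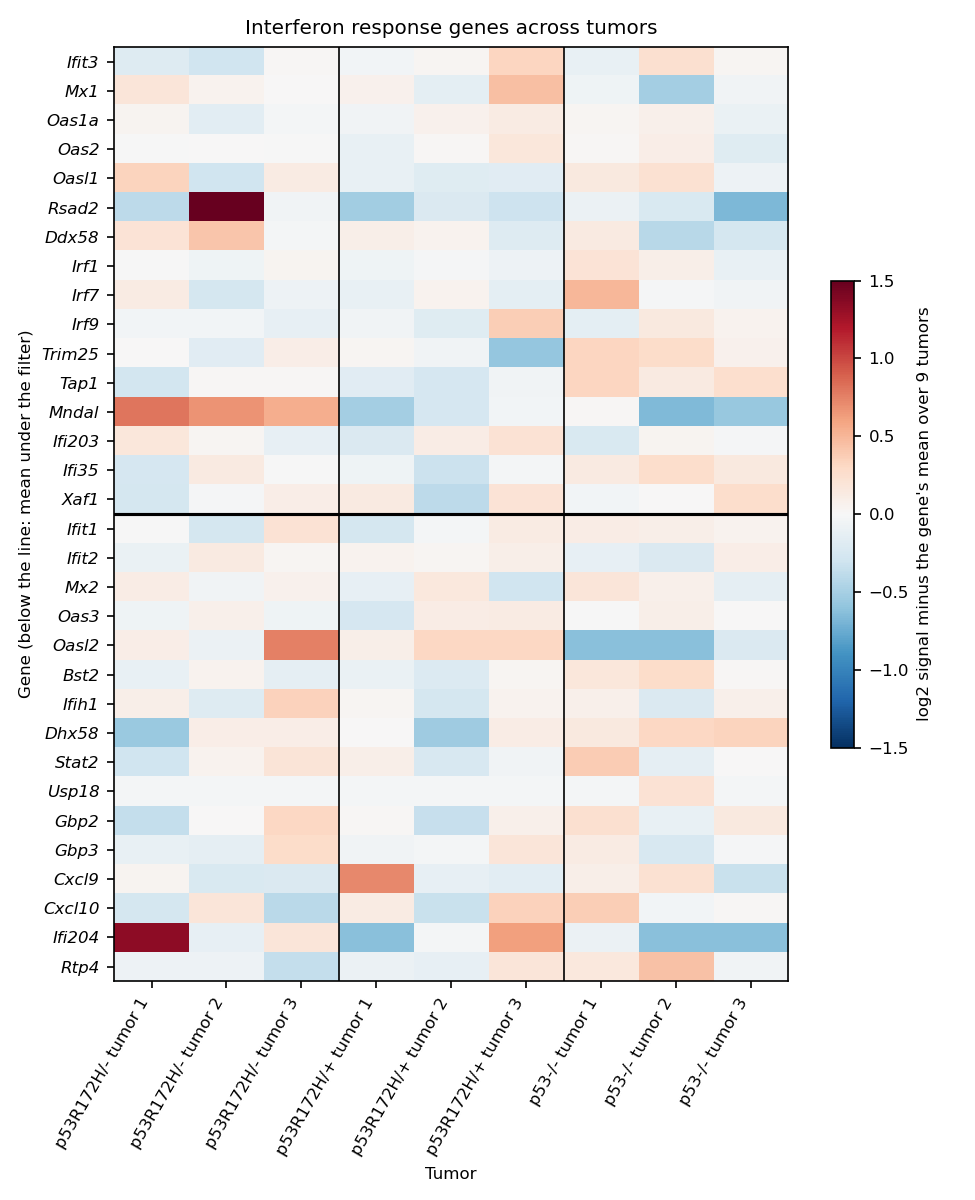
Log2 signal of 32 interferon response genes in 9 tumors, each minus the gene's mean over the tumors (signals under 52.6 units raised to it). The 16 genes above the horizontal line were tested, those below it were under the filter, and colour beyond 1.5 in either direction is cut, as for Rsad2 in p53R172H/- tumor 2.

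The largest difference among members whose groups did not overlap was in the IFI200 family, nuclear proteins with a pyrin domain and a DNA-binding domain, of which some sense DNA. Mndal, named for its likeness to the human myeloid nuclear differentiation antigen, had signals of 363, 331 and 304 in p53R172H/- tumors 1 to 3, of 146, 174 and 203 in p53R172H/+ tumors and of 211, 131 and 140.4 in p53-/- tumors. Every p53R172H/- tumor lay above every tumor of the other groups, which overlapped each other. Mndal was 2.11-fold higher in p53R172H/- than in p53-/- tumors (log2 fold change 1.08 ± 0.19 SE, 95% interval 0.64 to 1.51, limma adjusted p = 0.202). It was 1.92-fold higher in p53R172H/- than in p53R172H/+ tumors (0.94 ± 0.19 SE, adjusted p = 0.910). Between p53R172H/+ and p53-/- tumors the log2 fold change was 0.14 (95% interval -0.30 to 0.57).

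The other probe set of Mndal alone was dimmer and gave another order. It had 84.9, 113 and 95.3 signal units in p53R172H/-, 96.3, 107 and 101 in p53R172H/+ and 70.7, 75.1 and 72.2 in p53-/- tumors. Here both mutant groups lay above the p53-/- tumors and overlapped each other (log2 difference 0.42 for p53R172H/- and 0.48 for p53R172H/+, each against p53-/-). With the mean over both probe sets, the log2 fold change was 0.75 between p53R172H/- and p53-/- tumors and 0.44 between p53R172H/- and p53R172H/+ tumors.

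Ifi204, a family member that takes part in sensing DNA in mouse myeloid cells, was under the filter. Its signals were 206, 74.9 and 92.3 in p53R172H/-, 26.3, 79.9 and 125 in p53R172H/+ and 76.3, 30.4 and 30.9 in p53-/- tumors, with p53R172H/- tumor 1 far above the rest and the groups overlapping. Of 2 further probe sets that the annotation assigns to 4 genes each, neither was used for any gene. The first, listed for Mndal and Ifi204, read 478, 229 and 245 in p53R172H/-, 109, 171 and 183 in p53R172H/+ and 174, 63.2 and 107 in p53-/- tumors, again with all p53R172H/- tumors above all others and tumor 1 the highest. The second, listed for Ifi203, went the other way, with 194, 222 and 228 in p53R172H/-, 203, 266 and 233 in p53R172H/+ and 284, 384 and 224 in p53-/- tumors (log2 difference -0.44 for p53R172H/- and -0.32 for p53R172H/+, each against p53-/-, with overlap). The 2 probe sets that Ifi203 shares in groups of 3 genes were near even between p53R172H/- and p53-/- tumors, at -0.01 and 0.01. Ifi203, also of this family, did not follow this order, with 192, 174 and 157 in p53R172H/-, 147, 185 and 199 in p53R172H/+ and 146, 176 and 169 in p53-/- tumors (log2 fold change 0.09 between p53R172H/- and p53-/-, 95% interval -0.23 to 0.41).

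Family genes are close copies of each other, and 1 probe set can pick up several. The brightest probe set of Mndal is of a type that the manufacturer marks as able to bind other sequences. A promoter window of Mndal and 1 of Ifi203, both on chromosome 1, are printed to show how close these genes are, with the ISRE letters in capitals.
Mndal, chr1:173880138-173880437, minus strand: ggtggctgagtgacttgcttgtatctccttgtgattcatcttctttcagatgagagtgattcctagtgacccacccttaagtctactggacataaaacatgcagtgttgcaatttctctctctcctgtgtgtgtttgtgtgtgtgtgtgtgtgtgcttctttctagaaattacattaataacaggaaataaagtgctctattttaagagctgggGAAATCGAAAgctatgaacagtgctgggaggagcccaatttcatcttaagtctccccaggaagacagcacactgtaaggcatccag
Ifi203, chr1:173942443-173942742, minus strand: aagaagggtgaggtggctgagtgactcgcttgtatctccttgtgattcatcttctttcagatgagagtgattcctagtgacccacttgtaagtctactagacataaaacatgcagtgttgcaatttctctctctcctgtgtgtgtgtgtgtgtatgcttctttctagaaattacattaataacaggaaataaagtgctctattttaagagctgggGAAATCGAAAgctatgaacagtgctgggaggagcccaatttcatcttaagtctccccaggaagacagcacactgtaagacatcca

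These 2 windows share a run of 139 identical bases, which includes the ISRE match. With the second shifted by 1 base and no gaps allowed, 195 of 299 bases are identical (65.2%). A run of repeated GT letters differs in length between the windows, so the bases before it are compared out of step. This share therefore understates how close the windows are. The ISRE match begins at -36 in Mndal and at -35 in Ifi203. The reference table lists Mndal also as a synonym of Ifi203, so signals of the family are uncertain as to the gene. IFI200 genes are expressed in myeloid cells, and the mean log2 signal of 11 macrophage and monocyte genes was 8.37, 9.26 and 9.42 in p53R172H/- tumors, 8.89 to 9.33 in p53R172H/+ and 8.40 to 8.97 in p53-/- tumors. It was lowest in p53R172H/- tumor 1, where Mndal was highest. It was highest in p53R172H/- tumor 3, where Mndal was also above every tumor of the other groups. The part of myeloid cells in the Mndal signal was not tested. Fibroblast markers were lower on average in p53R172H/- tumors, where Mndal was higher. The mean log2 signal of 9 collagen and other stromal genes was 10.12 to 10.78 in p53R172H/-, 10.96 to 11.22 in p53R172H/+ and 10.42 to 11.30 in p53-/- tumors, with a median log2 fold change of -0.67 for p53R172H/- against p53-/- and -0.67 against p53R172H/+ tumors. Of the 9 genes, 7 had an unadjusted p under 0.05 in each of these comparisons, all lower in p53R172H/- tumors, where 9.16% of all genes tested were lower by this measure against p53-/- and 2.97% against p53R172H/+ tumors, although p53-/- tumor 2 lay within the range of the p53R172H/- tumors for the whole list. The part of stromal content in the Mndal signal was not tested.

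The transporter and ubiquitin ligase genes differed the other way. Tap1, a subunit of the transporter that carries peptides to MHC class I, had 237, 290.5 and 289 signal units in p53R172H/-, 255, 239.6 and 276 in p53R172H/+ and 358, 314 and 340.2 in p53-/- tumors. All 6 mutant tumors lay below all 3 p53-/- tumors, and the mutant groups overlapped. Tap1 was 1.28-fold lower in both mutant groups together than in p53-/- tumors (log2 fold change -0.35 ± 0.10 SE, 95% interval -0.58 to -0.13, limma adjusted p = 0.219). The log2 fold change was -0.32 ± 0.11 (SE) for p53R172H/- and -0.39 ± 0.11 (SE) for p53R172H/+ tumors, both against the same p53-/- tumors. Its 3 other probe sets lay at or near the floor of 52.6 units, under which all signals were set equal. Each was highest in p53-/- tumor 2, at 70.2, 81.8 and 98.2 signal units. These values are under 114 units, and how much of them is background is not known.

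Trim25, a ubiquitin ligase that activates the RNA sensor encoded by Ddx58, had 915, 806 and 977 signal units in p53R172H/-, 925, 880.3 and 609 in p53R172H/+ and 1137, 1104 and 953 in p53-/- tumors. All p53R172H/+ tumors lay below the p53-/- tumors, whereas p53R172H/- tumor 3 lay above the lowest p53-/- tumor. The log2 fold change was -0.42 ± 0.16 (SE, limma adjusted p = 0.442) for p53R172H/+ against p53-/- tumors, and -0.23 without p53R172H/+ tumor 3. For p53R172H/- against p53-/- tumors it was -0.24 ± 0.16 (SE). Of the 2 other probe sets of Trim25, 1 was lower in both mutant groups (-0.12 for p53R172H/- and -0.34 for p53R172H/+). The other was at -0.37 for p53R172H/- but close to even for p53R172H/+ (-0.05). In that probe set p53R172H/+ tumor 3 was the highest of the 9 tumors, at 396 signal units, although it was the lowest in the probe set used.

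Ifi35, a leucine zipper protein that interferons induce, had 586, 763 and 694 signal units in p53R172H/-, 667, 555 and 679.9 in p53R172H/+ and 761, 835 and 769.6 in p53-/- tumors. The p53R172H/+ tumors lay below all p53-/- tumors (log2 fold change -0.32 ± 0.12 SE, limma adjusted p = 0.442), and p53R172H/- tumor 2 overlapped the p53-/- tumors (-0.22 ± 0.12 SE). Of its other probe sets, 1 was lower in both mutant groups (-0.16 and -0.18, for p53R172H/- and p53R172H/+) and 1 was close to even (0.02 and -0.05, for the same groups).

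**Figure D3:**
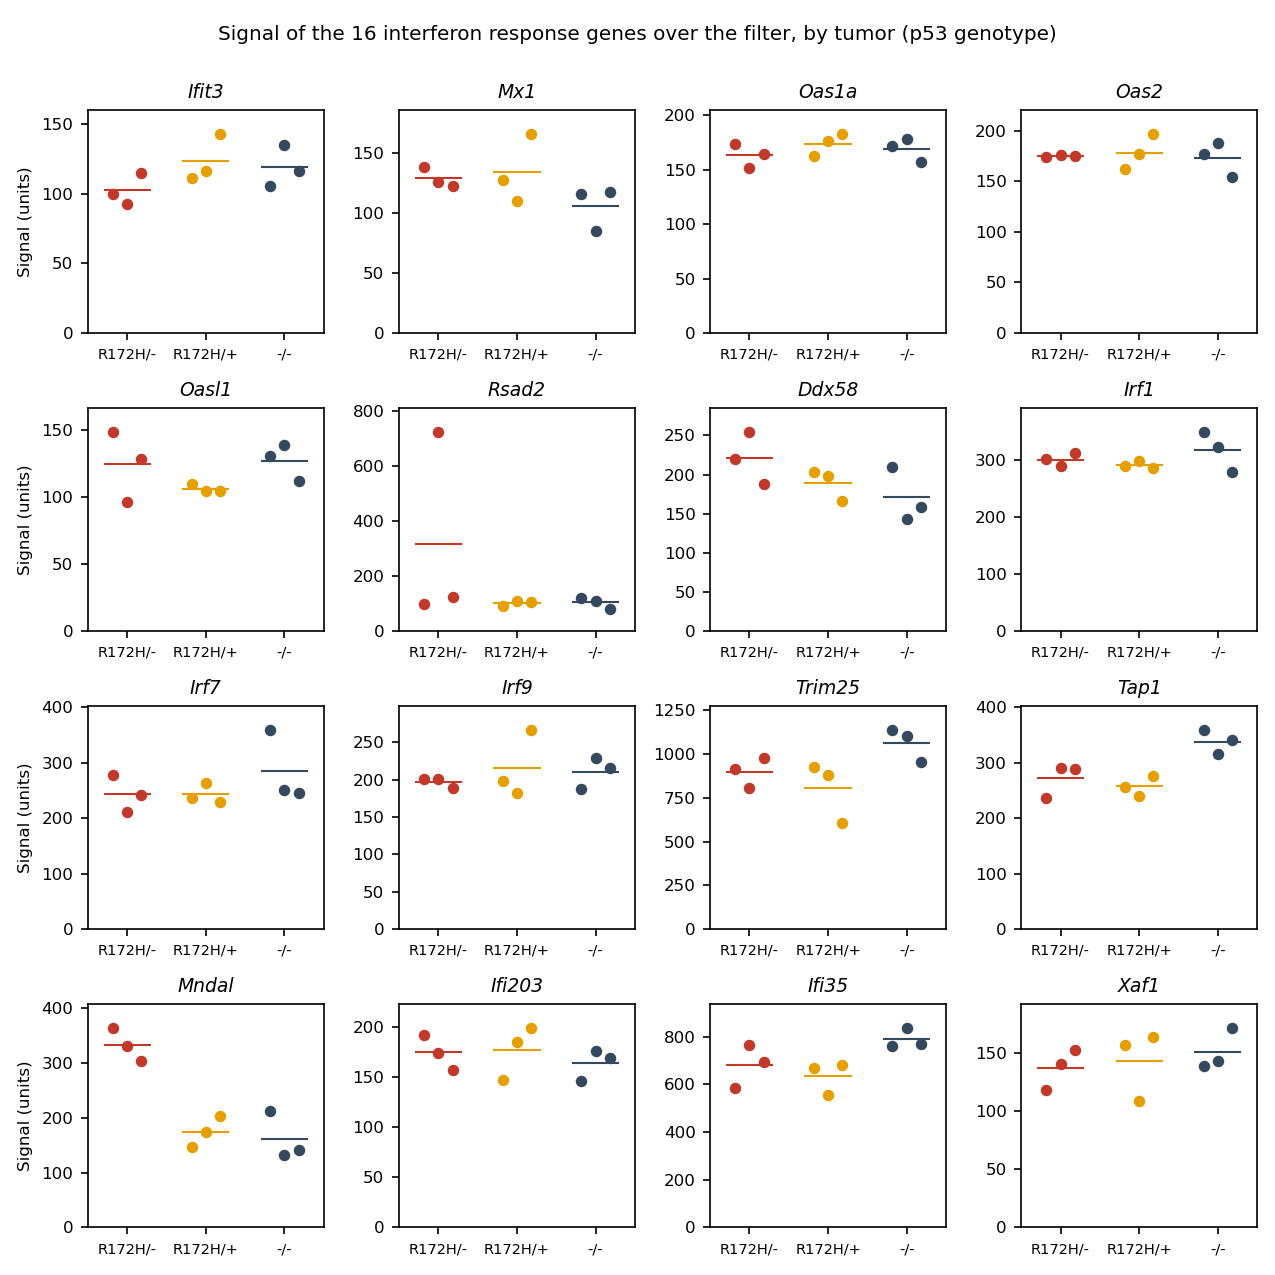
Signal of the 16 tested genes in each tumor, on linear axes from 0, with p53R172H/- tumors left, p53R172H/+ tumors in the middle and p53-/- tumors right. Points are tumors and lines are group means; all p53R172H/- tumors lie above the rest for Mndal, all mutant tumors lie below the p53-/- tumors for Tap1, and 1 tumor alone is high for Rsad2.

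Among the antiviral effectors, Rsad2 stood out in a single tumor. It encodes viperin, an enzyme that makes a chain-terminating nucleotide against viral polymerases, and had 98.8, 723 and 125 signal units in p53R172H/-, 90, 111 and 105 in p53R172H/+ and 121, 110.3 and 81.0 in p53-/- tumors. Only p53R172H/- tumor 2 was high, and all other tumors lay within the same range of 81.0 to 125. The log2 fold change between p53R172H/- and p53-/- tumors was 1.01 ± 0.62 (SE, limma adjusted p = 0.434) with that tumor and 0.11 without it.

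A dimmer Rsad2 probe set was also highest in p53R172H/- tumor 2, at 187 signal units against at most 42.1 in the other tumors, while the other one read 186 there and 198 in p53-/- tumor 2. The other effectors had no common level in that tumor. Ifit3 was at 93.0 and Oasl1 at 96.2 there, in both cases the lowest of the 9 tumors, whereas the effector gene Ifit2, at 108 signal units under the filter, and the sensor gene Ddx58 were at their highest there. The probe set that Isg15 shares with another gene was also highest there, at 158.5 signal units against 81.0 to 124 in the other tumors. The tumor also had the highest level of skeletal muscle genes, with a mean log2 signal of 11.57 over 10 markers against 6.18 to 10.35 in the other tumors, and the part of muscle in the Rsad2 signal was not tested.

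Mx1, a dynamin-like GTPase that blocks influenza virus, had 138, 126 and 122 signal units in p53R172H/-, 127, 110.0 and 166 in p53R172H/+ and 116, 85.1 and 117 in p53-/- tumors. The p53R172H/- tumors lay just above the p53-/- tumors, with 122 and 117 units as the nearest values, and the p53R172H/+ tumors overlapped both. Without p53-/- tumor 2, the lowest, the log2 fold change between p53R172H/- and p53-/- tumors was 0.14. With all tumors it was 0.29 ± 0.18 (SE) for p53R172H/- and 0.34 ± 0.18 (SE) for p53R172H/+ tumors, each against p53-/- (limma adjusted p = 0.436 and 0.529).

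The oligoadenylate synthetases, which switch on an RNA-degrading enzyme, differed little. Oas1a ran from 151 to 183 and Oas2 from 154 to 197 signal units over the 9 tumors, with all groups overlapping. Their log2 fold changes between p53R172H/- and p53-/- tumors were -0.05 (95% interval -0.29 to 0.19) and 0.02 (95% interval -0.24 to 0.28), so a 1.5-fold difference lies outside these intervals.

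Of the oligoadenylate synthetase-like genes, Oasl1, which in mice restrains the translation of Irf7, had 148, 96.2 and 129 signal units in p53R172H/-, 109.5, 104 and 105 in p53R172H/+ and 130.5, 138 and 112 in p53-/- tumors. The p53R172H/+ tumors lay below the p53-/- tumors and between the p53R172H/- tumors (log2 fold change -0.25 ± 0.16 SE against p53-/-). Oasl2, an antiviral relative under the filter, had 86.7, 76.3 and 137 in p53R172H/-, 85.9, 101 and 100.4 in p53R172H/+ and 46.8, 39.6 and 69.7 in p53-/- tumors. All mutant tumors lay above all p53-/- tumors, 2 of which were under the floor of 52.6 units (log2 fold change at the floored scale 0.74 ± 0.20 SE for both mutant groups against p53-/-, limma adjusted p = 0.254 over 18193 genes without the filter). Of those 18193 genes, 2.61% were likewise higher in all mutant tumors than in all p53-/- tumors. Ifit3, an RNA-binding effector, had 99.6, 93.0 and 115 in p53R172H/-, 111, 116 and 143 in p53R172H/+ and 106, 135 and 116 in p53-/- tumors, with all groups overlapping. Its log2 fold change for p53R172H/- tumors was -0.21 ± 0.15 (SE, limma adjusted p = 0.482) against p53-/- and -0.26 ± 0.15 (SE, adjusted p = 0.947) against p53R172H/+ tumors.

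The RNA sensor Ddx58 (RIG-I) had 219.6, 254 and 188 signal units in p53R172H/-, 203, 198 and 167 in p53R172H/+ and 209.8, 144 and 159 in p53-/- tumors. Its groups overlapped, with a log2 fold change of 0.38 ± 0.17 (SE, limma adjusted p = 0.326) between p53R172H/- and p53-/- tumors that was 0.26 without p53-/- tumor 2, while its 2 other probe sets, both dimmer, were at -0.12 and -0.01. The sensors Ifih1 (MDA5), from 93.9 to 143, and Dhx58 (LGP2), from 59.0 to 109, were under the filter. In Dhx58 no mutant tumor reached the lowest p53-/- tumor, although the nearest values were 94.0 in p53R172H/+ and 96.1 in p53-/- tumors, and another of its probe sets was higher on average in the mutant groups (0.17 for both together, on the log2 scale). Without the filter, 3.63% of all genes were likewise lower in all mutant tumors than in all p53-/- tumors.

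The transcription factors differed in how steady they were over the tumors. Irf1, an early target of interferon gamma, had 300.1, 289 and 311 signal units in p53R172H/-, 288, 298 and 286 in p53R172H/+ and 348, 322 and 279 in p53-/- tumors. Irf7, the amplifier of type I interferon production, had 278, 212 and 242 in p53R172H/-, 237, 264 and 229.7 in p53R172H/+ and 359, 252 and 245 in p53-/- tumors. In both genes p53-/- tumor 1 was the highest and the groups overlapped. Irf7 was at -0.21 (95% interval -0.53 to 0.11) for both mutant groups against p53-/- tumors on the log2 scale, and at -0.03 without p53-/- tumor 1. Irf9, the DNA-binding part of the type I complex, had 201, 201 and 189 signal units in p53R172H/-, 198, 182 and 266 in p53R172H/+ and 187, 229 and 215 in p53-/- tumors, and was highest in p53R172H/+ tumor 3. Between p53R172H/- and p53R172H/+ tumors its log2 fold change was -0.11 ± 0.15 (SE).

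Of the members with other roles, Xaf1, which encodes a partner of the apoptosis inhibitor XIAP, had 118, 141 and 152 signal units in p53R172H/-, 156, 108 and 164 in p53R172H/+ and 138, 143 and 171 in p53-/- tumors, with all groups overlapping (log2 fold change -0.04 ± 0.18 SE between p53R172H/- and p53R172H/+). Bst2 (tetherin, which holds budding viruses on the cell), under the filter, had 101, 113 and 99.6 in p53R172H/-, 102, 94.4 and 111 in p53R172H/+ and 123, 132 and 110.3 in p53-/- tumors, where the groups overlapped only between 110.3 and 113. Rtp4, a transporter of membrane receptors that interferons induce, had 93.6, 93.4 and 77.2 in p53R172H/-, 92.6, 90.9 and 112 in p53R172H/+ and 110.1, 133 and 95.02 in p53-/- tumors. The p53R172H/- tumors lay narrowly below the p53-/- tumors (-0.35 ± 0.15 SE, limma adjusted p = 0.370 without the filter). Without the filter, 12.4% of all genes were lower without overlap in this comparison. Another, dimmer Rtp4 probe set went the opposite way without overlap, with 63.8, 61.4 and 77.4 in p53R172H/-, 60.2, 73.3 and 97.0 in p53R172H/+ and 52.3, 58.2 and 56.1 in p53-/- tumors, so the direction of Rtp4 is not settled.

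The chemokine genes Cxcl9 and Cxcl10, whose products attract activated T cells, had no common order. Cxcl9 had 69.8, 58.1 and 58.6 signal units in p53R172H/-, 112, 62.5 and 60.9 in p53R172H/+ and 72.7, 79.6 and 54 in p53-/- tumors, so 1 p53R172H/+ tumor stood above the rest. Cxcl10 had 72.3, 98.7 and 65.5 in p53R172H/-, 94.9, 69.1 and 111 in p53R172H/+ and 112, 84.8 and 88.1 in p53-/- tumors, and Gbp2, a guanylate-binding GTPase that attacks intracellular pathogens, had 70.1, 90.8 and 112 in p53R172H/-, 91.5, 71.1 and 95.04 in p53R172H/+ and 106, 83.4 and 99.9 in p53-/- tumors. All groups overlapped in these 3 genes. The Gbp2 probe set used was at -0.11 for p53R172H/- and -0.17 for p53R172H/+ against p53-/- tumors on the log2 scale. Its other, dimmer probe set went the opposite way, at 0.53 and 0.21. Over the 9 tumors Ifit2 ran from 84.3 to 108, Mx2 from 74.4 to 104, Gbp3 from 56.3 to 80.1 and Stat2 from 59.0 to 94.5 signal units. The 2 probe sets of Stat2 also differed in direction. Against p53-/- tumors the one used was at -0.11 for p53R172H/- and -0.16 for p53R172H/+, and the other at 0.28 and 0.20.

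**Figure D4:**
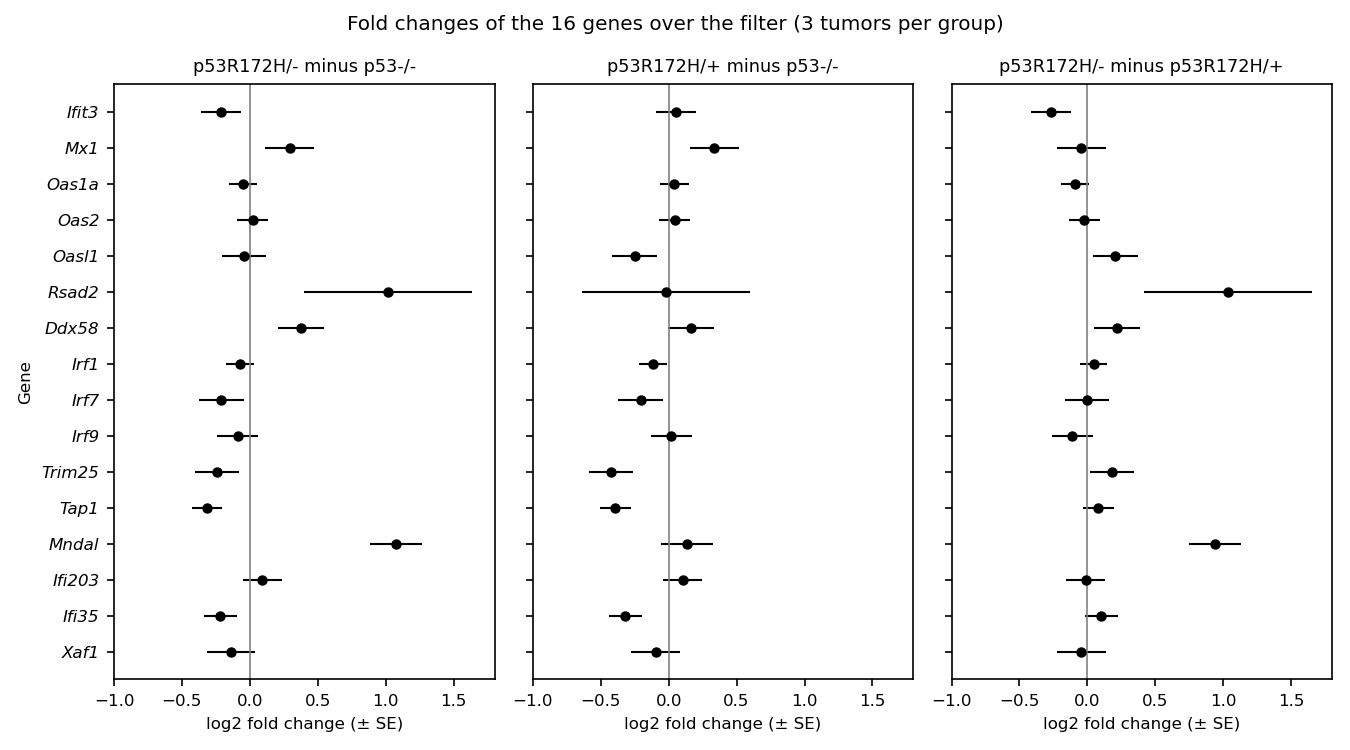
Log2 fold changes with standard errors (bars) of the 16 tested genes in p53R172H/- against p53-/-, p53R172H/+ against p53-/- and p53R172H/- against p53R172H/+ tumors, from the limma fit of all 9 arrays. The first 2 panels share the p53-/- tumors; Mndal is the farthest from 0 relative to its error in the first and last panels, and the bars of Rsad2 are the widest.

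The rest of the pathway is given by fixed lists of genes outside the 34. All 7 interferon ligand genes measured, 5 of them interferon alpha genes with Ifnb1 and Ifng, were under the filter, with mean signals of 33.7 (Ifna11) to 102 (Ifna2). All 6 receptor genes were over it. Ifngr1, the ligand-binding chain of the interferon gamma receptor, had 634, 776 and 688 signal units in p53R172H/-, 474, 547 and 602 in p53R172H/+ and 543, 441 and 515 in p53-/- tumors. The p53R172H/- tumors lay above all others (log2 fold change 0.49 ± 0.13 SE against p53-/-, limma adjusted p = 0.214, and 0.37 ± 0.13 SE against p53R172H/+, adjusted p = 0.947). Of all genes tested, 9.1% were higher without overlap in p53R172H/- than in p53-/- tumors, and 5.27% than in p53R172H/+ tumors.

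Ifnar2, a chain of the type I interferon receptor, went the other way, with 337, 509.6 and 539.8 signal units in p53R172H/-, 592, 484 and 693 in p53R172H/+ and 739, 579 and 685 in p53-/- tumors. The p53R172H/- tumors lay below the p53-/- tumors, with tumor 1 the lowest (-0.55 ± 0.20 SE, limma adjusted p = 0.269). Of all genes tested, 13.8% were lower without overlap in this comparison. Ifngr2 (0.44 ± 0.19 SE) and the interferon lambda receptor gene Ifnlr1 (-0.45 ± 0.18 SE) also had an unadjusted p under 0.05 in this comparison, so that 2 of the 6 receptor genes were higher and 2 lower, against 15.6% of all genes.

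Of 9 tested signalling genes, 1, Irf8, had an unadjusted p under 0.05 between p53R172H/- and p53-/- tumors, no more than the 15.6% of all genes. Irf8, a transcription factor of myeloid and dendritic cells that also responds to interferon gamma, had 77.0, 115 and 126 signal units in p53R172H/-, 165, 81.7 and 307 in p53R172H/+ and 216, 252 and 374 in p53-/- tumors. The p53R172H/- tumors lay below the p53-/- tumors (log2 fold change -1.40 ± 0.43 SE, limma adjusted p = 0.245), and p53R172H/+ tumors spanned both. Such a lack of overlap, with p53R172H/- lower than p53-/- tumors, held for 13.8% of all genes tested. Of 11 nucleic acid sensing genes, 1 higher and 1 lower had an unadjusted p under 0.05 in the same comparison, beside 15.6% of all genes. They were Tbk1, the kinase that activates IRF3, at 0.21 ± 0.09 (SE) and the DNA receptor gene Tlr9 at -0.32 ± 0.14 (SE). In p53R172H/+ against p53-/- tumors it was 1 of the 11, Mavs, the adaptor of the RNA sensors, at 0.26 ± 0.11 (SE), beside 10.4% of all genes. In p53R172H/- against p53R172H/+ tumors it was 1 of the 9 signalling genes, the phosphatase gene Ptpn11, at 0.21 ± 0.09 (SE), beside 4.97%.

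Antigen presentation genes other than Tap1 were compared in the same way. Of 11 tested class I genes, 10 were lower on average in p53R172H/+ than in p53-/- tumors, with a median log2 fold change of -0.20, where 56% of all genes were lower. Tap2, the partner of Tap1, had 165, 145 and 172.3 signal units in p53R172H/+ against 198, 258 and 236 in p53-/- tumors (-0.52 ± 0.14 SE, limma adjusted p = 0.360), and Tapbp, which encodes tapasin, was at -0.27 ± 0.09 (SE). Tapbp was at 0.28 ± 0.09 (SE) in p53R172H/- against p53R172H/+ tumors. In p53R172H/- against p53-/- tumors 5 of these 11 were lower, with a median of 0.02, and Psme1, a subunit of the proteasome activator, was at -0.32 ± 0.12 (SE). The genes named were those of the 11 with an unadjusted p under 0.05. Of all genes, 10.4% had such a p in p53R172H/+ against p53-/- tumors, 4.97% between the mutant groups and 15.6% in p53R172H/- against p53-/- tumors.

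All 5 tested class II genes were lower on average in each mutant group than in p53-/- tumors, with medians of -0.29 for p53R172H/- and -0.48 for p53R172H/+. Of all genes, 56.2% and 56% were lower in these comparisons. In each of them 2 of the 5 were lower at an unadjusted p under 0.05, against 9.16% and 5.61% of all genes. H2-Eb1, a class II beta chain gene, had 535, 729 and 872 signal units in p53R172H/-, 680.3, 443 and 623 in p53R172H/+ and 1156, 956 and 919.9 in p53-/- tumors, with no overlap between mutant and p53-/- tumors (-0.67 ± 0.18 SE for both mutant groups, limma adjusted p = 0.206). Of all genes tested, 3.95% were likewise lower in all mutant tumors than in all p53-/- tumors. H2-DMa, which helps load class II with peptide, was at -0.43 ± 0.19 (SE) in p53R172H/-, and Cd74, the invariant chain gene, at -0.48 ± 0.21 (SE) in p53R172H/+ tumors, each against p53-/-. The mean log2 signal of the class II list was lowest in p53R172H/+ tumor 2 (9.25) and p53R172H/- tumor 1 (9.54). The other p53R172H/+ tumors were at 9.99 and 9.81. By contrast, p53R172H/- tumors 2 and 3, at 10.06 and 10.12, lay within the range of the p53-/- tumors, 10.03 to 10.34. The lowest Tap1 signals were also those of p53R172H/+ tumor 2 (239.6) and p53R172H/- tumor 1 (237). Of 8 further interferon-induced GTPase genes measured, 4 were over the filter, and of these Irgm1 was at 0.32 ± 0.13 (SE) in p53R172H/+ against p53-/- tumors. It alone of the 4 had an unadjusted p under 0.05 in this comparison, beside 10.4% of all genes.

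Markers of immune cells that could carry interferon response RNA are given beside these values, and their part in them was not tested. Of 14 T and NK cell genes measured, 9 were under the filter. The other 5 had mean log2 signals of 7.33 to 7.43 in p53R172H/-, 7.29 to 7.50 in p53R172H/+ and 7.32 to 7.55 in p53-/- tumors. The 11 tested macrophage and monocyte genes had a median log2 fold change against p53-/- tumors of 0.27 in p53R172H/- and 0.41 in p53R172H/+ tumors. Of the 11, 9 and 10 were higher on average in these comparisons, where 43.8% and 44% of all genes were higher. At an unadjusted p under 0.05, 0 and 3 of the 11 were higher, against 6.45% and 4.75% of all genes. Of 5 B cell genes 3, and of 7 dendritic cell genes 4, were under the filter. Of the genes listed for dendritic cells and over the filter, Flt3 and Itgax had mean signals of 185 and 160 units. Ly6d, on the same list, had 11828, near the 11635 of the epithelial marker Krt5. Which cells gave the Ly6d signal was not tested.

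**Figure D5:**
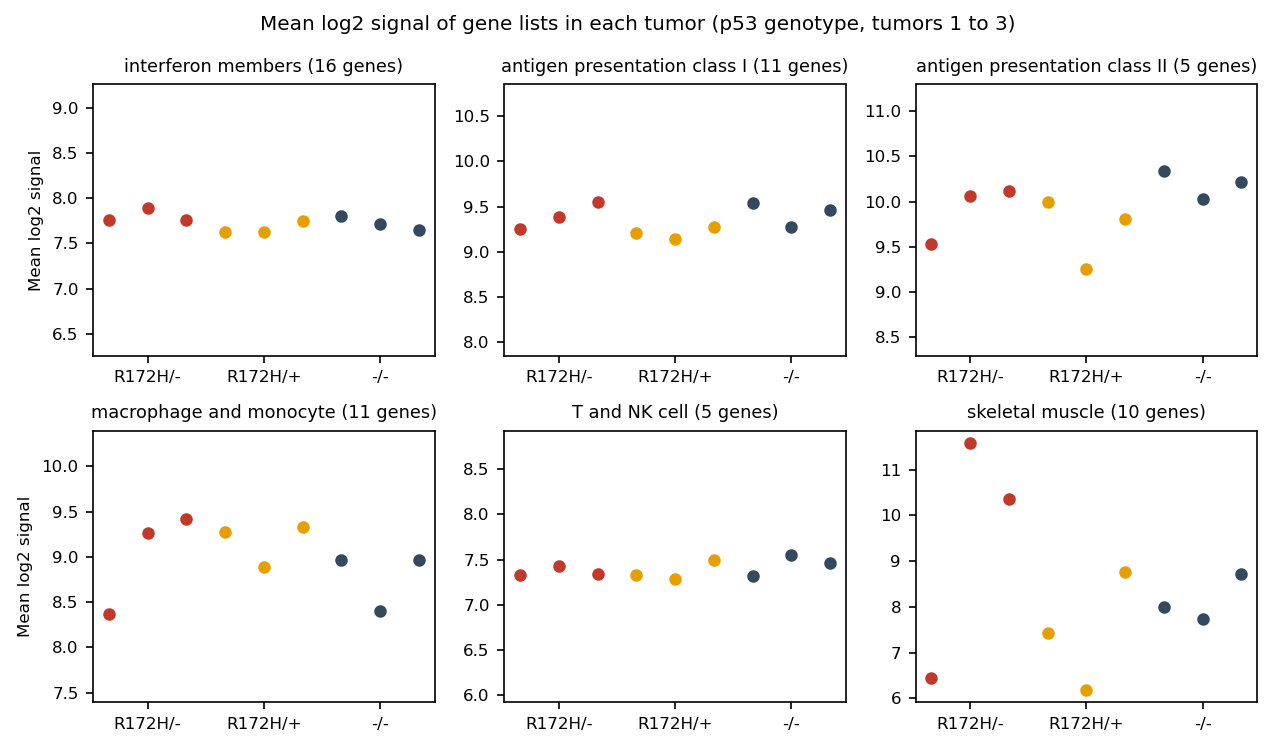
Mean log2 signal of the tested genes of 6 lists in each tumor, with p53R172H/- tumors left, p53R172H/+ tumors in the middle and p53-/- tumors right, tumors 1 to 3 in order within a group. The panels span at least 3 log2 units; the 16 interferon response genes stay within 7.63 to 7.89, while skeletal muscle genes run from 6.18 to 11.57.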

How the data were processed

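Total RNA of 9 tumors was purified with a column kit and turned into biotin-labelled cRNA, per the labels' protocols. The authors deposited signal intensities on a linear scale, for 45101 probe sets (64 of them controls) on each array, computed with MAS5 according to the submitters' processing notes. How arrays were scaled is not stated in the labels. Probe sets with 1 symbol in the platform annotation (34945) were used and those with several (932) or none (9160) were not, and by gene identifier 34741 of the 34945 matched the reference table, which changed 0 symbols.

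Intensities under the 20th percentile of all values (52.6 units) were raised to it before taking log2, and the arrays were not normalized again. The brightest probe set stood for a gene, and genes with a mean under 114 units were left out, which left 12115 of 18193, with 0.0734% of values at the floor. Group means were fitted to all 9 arrays with limma 3.58.1 (R 4.3.3), by lmFit and then eBayes (trend on), Benjamini-Hochberg adjusted over all genes tested (threshold 0.05, two-sided), in 4 comparisons. The fit was tested on simulated data. At most 0.0421% of probe sets had the same value on both arrays of a pair.

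The members, the other lists and the tests were chosen with earlier results of these data known. The genes named were all members, given in full for the 4 with the smallest p in each comparison and direction and the 3 with the widest range, and up to 3 genes of each other list and comparison with an unadjusted p under 0.05. Other members given per tumor (such as Oasl2, Ifi204, Dhx58, Bst2 and Rtp4) were chosen after their values were seen. Cell type markers are given as lists. Alternatives were 2 normalizations, another floor, no filter, the mean over probe sets, other variance models, only the groups compared, a block for the tumor number, and leaving out each array in turn. The targeted gene is not reported here.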

Additional observations from a re-analysis of the deposited data

How the results depend on the processing

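No interferon response gene passed the adjusted threshold under any alternative run, with 0 called in each of the 4 comparisons, also with the tumor number as a replicate block, where 0 genes of the list were called. Whether the tumor numbers pair the tumors cannot be settled with 3 tumors per group. Deviations from group means correlated across genes at -0.50 to 0.24 between same-numbered tumors and at -0.47 to 0.53 between differently numbered tumors. For 2 of 9 tumors, the best-correlated tumor of another group had the same number. The named members kept their direction under all alternatives other than leaving out an array, except Rsad2 in p53R172H/+ against p53-/- tumors, which was at -0.02 and came to 0.0486 with quantile normalization and to 0.0484 with arrays scaled to one median. With 1 array left out, this value ran from -0.19 to 0.10, and in p53R172H/- against p53R172H/+ tumors that of Xaf1 from -0.23 to 0.0665, of Irf9 from -0.22 to 0.0504 and of Mx1 from -0.18 to 0.12. The members' median log2 fold change ran from -0.0813 (without p53R172H/+ tumor 3) to 0.0701 in p53R172H/+ against p53-/- tumors and from -0.10 to 0.0219 (without p53-/- tumor 2) for both mutant groups against p53-/-. With the mean over probe sets Ddx58, Rsad2, Tap1 and Xaf1 fell under the filter and had no value. For the 16 members under the filter, how much of the signal is background is not known.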
